A study of Mus musculus with 6 samples.

Results

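Glycolysis, the breakdown of glucose to pyruvate and lactate in the cytosol, is described here through 10 mouse enzyme genes: the hexokinases Hk1, Hk2 and Hk3, the isomerase Gpi1, the phosphofructokinases Pfkl and Pfkp, the aldolase Aldoa, the phosphoglycerate kinase Pgk1, the pyruvate kinase Pkm and the lactate dehydrogenase Ldha. They were chosen by gene symbol, as 10 of the genes in 36557 gene rows, and Hk3 and Pfkp were set against the other 8 because both isoforms are known from blood cells. The 10 genes took up 11 rows, since Aldoa has a second row of 0.442 to 0.813 CPM (counts scaled to the library size) that is left out of the values below, and all 11 rows passed the filter on low counts. RNA of the aortic arch and thoracic aorta was sequenced from 3 Apoe-/- MiR26b-/- samples, called knockouts below, and 3 Apoe-/- control samples. Both groups carried the Apoe deletion, which leaves mice with high plasma cholesterol and prone to atherosclerotic plaque, and both had eaten a high-fat diet for 4 weeks. The labels give no age, sex or promoter for the deletions, and they do not say that each library is a separate animal, so a p-value here speaks only of how the 6 libraries spread. The MiR26b transcript was not analysed here, so the deletion itself was not checked.

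Glycolysis begins when a hexokinase phosphorylates glucose, is paced at the phosphofructokinase step, and yields ATP at phosphoglycerate kinase and pyruvate kinase; lactate dehydrogenase then recycles NADH so that the pathway can run without mitochondria. Most steps have several isoforms that differ by tissue: Hk1 is found in most cells, Hk2 in muscle and fat, and Hk3 mainly in myeloid white blood cells, while Pfkl, Pfkm and Pfkp are the liver, muscle and platelet forms. In the plaque-bearing aorta the RNA comes from smooth muscle cells, endothelium, fibroblasts, recruited macrophages and the fat around the vessel, all of which use glucose to different extents. In whole-tissue RNA fewer cells of a type and less RNA per cell cannot be told apart.

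The libraries held between 51634139 and 54817547 deposited counts. Of 17392 genes tested with edgeR's quasi-likelihood test, 1131 (6.50%) were higher and 667 (3.84%) lower in knockouts at a Benjamini-Hochberg adjusted p under 0.05; with library size as the only scaling the numbers were 1476 higher and 447 lower. On the first principal component, which held 70.4% of the variance, knockout replicate 3 lay at -1.04, between the other knockouts at 39.33 and 45.98 and the controls at -34.56 to -22.32. The calls rest on few libraries: without knockout replicate 3 there were 3051 higher and 2028 lower, and without control replicate 1 or control replicate 3 edgeR called 0 genes, while in either case 4056 had an unadjusted p below 0.05. Over all 6 libraries DESeq2 called 2067 higher and 1334 lower. Among cell type markers, all 12 macrophage markers were higher in knockouts, with summed levels of 4639, 5266 and 1613 CPM in knockouts and 815, 711 and 606 CPM in controls. Of 10 smooth muscle markers 6 were lower, with summed levels of 24316, 22719.8 and 27132 CPM in knockouts and 33790.3, 33781 and 38927 CPM in controls. None of the markers in either list was at 0 in every library, and without knockout replicate 3 all 12 and 10 of 10 passed in these directions. Of 8 endothelial markers 3 were higher and of 8 fibroblast markers 4 were higher.

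The microRNA that the labels give as deleted in the knockouts recognises targets through its seed, the bases 2 to 8 counted from its 5′ end and shown in capitals; the sequence is from RefSeq (chr1:74394324-74394344, plus strand, GRCm38.p6).
miR-26b-5p: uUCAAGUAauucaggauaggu
The matching 7-base site, UACUUGA, was in the longest annotated 3′ untranslated region of none of the 10 enzymes, against 2033 of 21022 coding genes (9.7%). Those regions were between 185 bases long in Aldoa and 2285 bases long in Hk2. Of 11 other genes searched, which were the enzymes' partners Pfkm, Aldoc, Ldhb, Gapdh, Tpi1, Pgam1 and Eno1 and the genes Pfkfb4, Slc2a6, Slc16a7 and Ndrg1, Slc16a7, a lactate and pyruvate transporter, had 1 such site in a far longer region of 8742 bases, shown in capitals as DNA in the transcript's direction (GRCm38, chr10:125223114-125223142, minus strand).
Slc16a7 site: atgcttctgcaTACTTGAgagcacatgta
These matches describe letters only and say nothing of binding.

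Of the 10 enzymes, 1 was higher and 0 were lower in knockouts by edgeR, against 6.50% and 3.84% of all tested genes. At an unadjusted p below 0.05, 2 were lower (Pfkp and Gpi1), against 2292 of the 17392 tested genes. DESeq2 called 1 enzyme lower (Pfkp), against 1334 of the 17392. The gene that passed was Hk3, at a log2 difference of 2.79 (SE 0.51), while the other 9 differences lay between -0.30 for Pfkp and 0.16 for Ldha. The median over the 10 was -0.06, and that over all tested genes was -0.0033. In 3 of the 10, Hk3, Pfkp and Gpi1, the CPM of the groups did not overlap, against 36.1% of all tested genes. The count of enzymes with separate groups was thus near the background.

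On the per-length scale of the deposited normalized TPM (transcript abundance corrected for length), the only one on which genes are compared with each other here, Aldoa was the most abundant at a mean of 827 over the 6 libraries. Pkm followed at 601, Ldha at 333, Gpi1 at 269, Pgk1 at 146, Pfkp at 120.3, Pfkl at 38.5, Hk1 at 31.5, Hk2 at 17.1 and Hk3 at 12.3 TPM. Pkm and Pgk1, at the ATP-yielding steps, were each above all 3 hexokinases and Pfkl in level. The ranges over libraries overlapped between the neighbours Ldha and Gpi1, Pgk1 and Pfkp, Pfkl and Hk1, and Hk2 and Hk3, and not between the other neighbours. Summed over the 10 genes the knockouts had 2329, 2329 and 2475 TPM and the controls 2772, 2295 and 2166 TPM, so the groups overlapped.

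**Figure D1:**
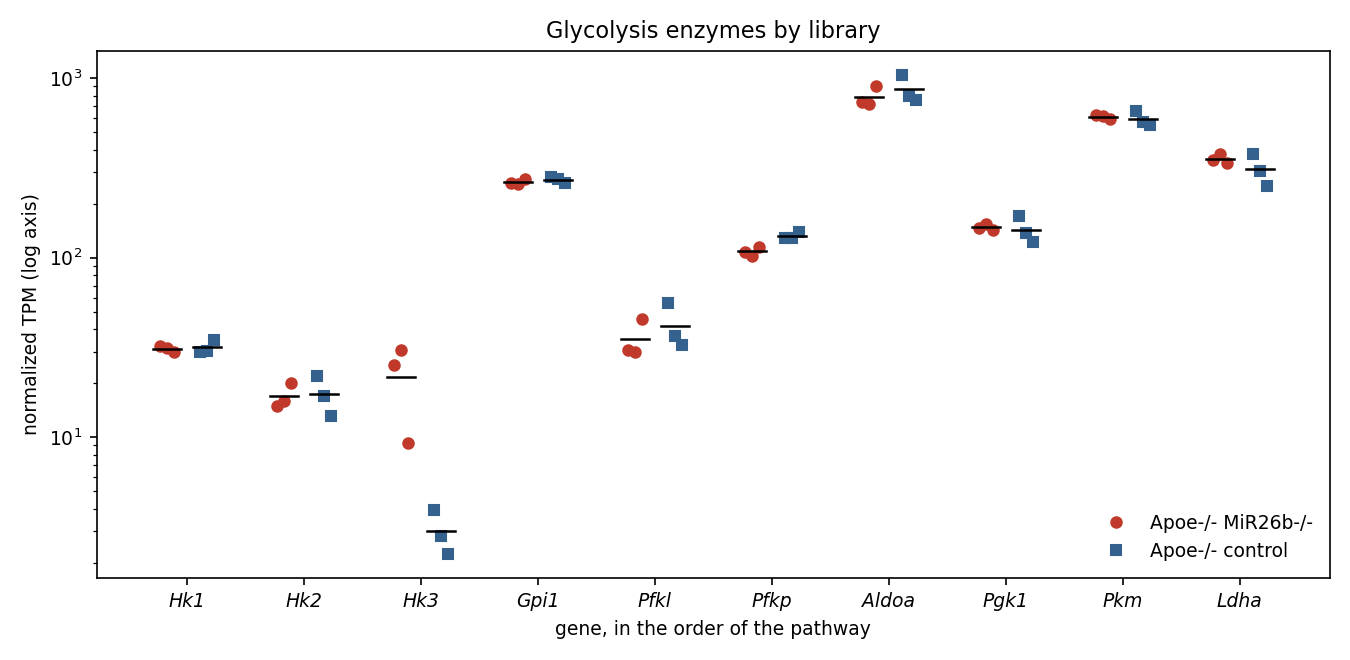
Deposited normalized TPM (log axis) of the 10 enzymes in each library, in the order of the pathway, with knockouts as red circles, controls as blue squares and a black bar for each group's mean. Hk3 runs from 9.24 to 30.5 TPM in knockouts and from 2.24 to 3.93 TPM in controls, Pfkp sits lower in the 3 knockouts, and the other 8 enzymes overlap between the groups.

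Of the hexokinases, the myeloid form Hk3 passed the test and the general forms Hk1 and Hk2 did not. Hk3 had 25.3, 30.5 and 9.24 TPM in knockouts, against 3.93, 2.81 and 2.24 TPM in controls. Every knockout was above every control, with knockout replicate 3 well below the other knockouts. In CPM the values were 42.7, 54.8 and 15.2 in knockouts and 7.6, 5.09 and 3.58 in controls, a 6.92-fold difference (log2 2.79, SE 0.51, adjusted p = 0.0322). The direction held with each library left out, at log2 2.42 to 3.17, but the call did not: the adjusted p was 0.000876 without knockout replicate 3 and between 0.0911 and 0.129 without any one of the other 5 libraries, which are knockout replicates 1 and 2 and control replicates 1, 2 and 3. By limma-voom the adjusted p was 0.069.

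Hk1, the general form bound to mitochondria, had 32.3, 31.5 and 29.8 TPM in knockouts and 30, 30.3 and 34.9 TPM in controls. Its CPM difference was the tightest of the hexokinases (log2 -0.03, SE 0.07, adjusted p = 0.806). Hk2, the insulin-responsive form of muscle and fat, had 14.9, 15.9 and 20.0 TPM in knockouts and 21.9, 16.9 and 13.2 TPM in controls. These groups overlapped fully, with the highest values in knockout replicate 3 and control replicate 1 (log2 difference in CPM -0.08, SE 0.20, adjusted p = 0.819).

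Hk3 made up 34.9%, 39.1% and 15.7% of the summed hexokinase TPM in knockouts, against 7.05%, 5.63% and 4.46% in controls. The mean share was 29.9% ± 12.5 in knockouts and 5.71% ± 1.3 in controls (SD, n = 3 each), 24.2 percentage points apart. An exact two-sided permutation test gave p = 0.1, the smallest that 3 against 3 libraries allow, and 0.6 after adjustment over the 6 isoform shares tested. Hk2 made up 20.5%, 20.4% and 33.9% in knockouts and 39.2%, 33.7% and 26.2% in controls (exact permutation p = 0.3), and Hk1 fills the rest, at 44.6%, 40.4% and 50.5% in knockouts and 53.8%, 60.6% and 69.4% in controls. The 3 hexokinases summed to 72.5, 77.8 and 59.0 TPM in knockouts and to 55.8, 50 and 50.3 TPM in controls, with no overlap.

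The Hk3 gene lies on chromosome 13 from 55005985 to 55021385 on the minus strand (GRCm38). Its upstream window is printed because Hk3 is the enzyme that differed; it is the 250 bases before the RefSeq start (chr13:55021386-55021635, minus strand, GRCm38.p6), with capitals for the searched motifs GAGGAA, the core bound by the myeloid factor PU.1, and ACGTG, the core bound by hypoxia-inducible factors, each searched on both strands.
Hk3 upstream window: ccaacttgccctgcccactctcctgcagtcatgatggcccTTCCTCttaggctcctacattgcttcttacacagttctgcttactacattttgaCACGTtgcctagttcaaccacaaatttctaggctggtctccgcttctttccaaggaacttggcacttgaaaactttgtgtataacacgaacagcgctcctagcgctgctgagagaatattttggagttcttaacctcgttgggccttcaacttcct
The window held 1 match of GAGGAA, on the opposite strand 210 bases before the start, and 1 of ACGTG, also on the opposite strand. GAGGAA was in 3 of the 15 windows of the 10 enzymes (in Hk1, Hk3 and Aldoa), against 23.3% of all 32851 windows of this length, so it was no more frequent here than elsewhere. A match describes the letters and is neither a site nor a cause.

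Macrophage markers moved with Hk3 across the libraries. On a log2(CPM + 0.5) scale centred on each gene's mean, Hk3 stood at 1.65, 2.0 and 0.18 in knockouts and at -0.77, -1.30 and -1.76 in controls. The mean of the 12 macrophage markers stood at 1.37, 1.55 and 0.12 in knockouts and at -0.80, -0.96 and -1.28 in controls. Hk3 minus this marker mean was 0.28, 0.45 and 0.07 in knockouts and 0.03, -0.35 and -0.48 in controls, so it followed the markers and spread somewhat wider; the part of macrophage content in the Hk3 difference was not tested. Neutrophils also use Hk3. Their 9 markers summed to 39.3, 55.8 and 12.2 CPM in knockouts and to 12.2, 8.09 and 5.52 CPM in controls. The largest part was the receptor Csf3r, the 1 of the 7 tested that was higher by edgeR. S100a8, S100a9, Cxcr2 and Retnlg overlapped between the groups, and Ngp went the other way (log2 -0.93). Mmp8 did not overlap, at 4.49, 4.08 and 0.909 CPM in knockouts and 0.586, 0.096 and 0.0571 CPM in controls. Its log2 difference was 3.67, with an edgeR adjusted p of 0.0527. At an unadjusted p below 0.05, 4 of the 7 were higher, against 3040 of the 17392 tested genes. DESeq2 called 3 higher, against 2067 of 17392 genes. Without knockout replicate 3 edgeR called 6 of the 7 higher, against 3051 of 17720 genes. The part of neutrophil content in the Hk3 difference was not tested either.

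The 5 genes whose profile over the 6 libraries was most like that of Hk3, among 13812 genes whose mean log2 CPM was 0 or more, were Il7r, Fabp5, Havcr2, Ms4a7 and Cd68. Their root mean square differences from Hk3, in log2 units over profiles centred on each gene's mean, were 0.063, 0.105, 0.118, 0.119 and 0.12 in that order. Il7r is the interleukin-7 receptor, Fabp5 a fatty-acid carrier, Havcr2 the immune checkpoint receptor TIM-3, and Ms4a7 and Cd68 are known from macrophages. The likeness is a description over 6 libraries that share the same group difference.

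Gpi1, which turns glucose 6-phosphate into fructose 6-phosphate, had 279, 270.4 and 305 CPM in knockouts and 322, 319 and 316 CPM in controls. The knockouts were all lower, by a log2 difference of -0.16 (SE 0.06) that did not pass (adjusted p = 0.136). Without knockout replicate 3 it was -0.22 with an adjusted p of 0.0187. In TPM the groups overlapped, at 262, 259 and 276 in knockouts and 282, 275 and 261 in controls. The ratio of counts to TPM, which moves with the transcript length assigned to the gene, was 56.9, 55 and 58.5 in knockouts and 60.4, 60.5 and 63.6 in controls, so the Gpi1 difference depends on the scale used.

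At the phosphofructokinase step no isoform passed by edgeR. The platelet form Pfkp, the most abundant of the 3, had lower values in all knockouts, in the direction opposite to Hk3. Pfkp had 226, 209 and 253 CPM in knockouts and 273, 281 and 294 CPM in controls. In TPM it had 108, 102 and 115 in knockouts and 128, 129 and 139.6 in controls, without overlap on either scale. The log2 difference was -0.30 (SE 0.08, adjusted p = 0.0629), just short of the threshold. DESeq2 gave an adjusted p of 0.011, and edgeR without knockout replicate 3 gave -0.38 with an adjusted p of 0.0063. Pfkl, the liver form, had 30.6, 30 and 45.5 TPM in knockouts and 55.9, 36.5 and 32.5 TPM in controls. Its groups overlapped (log2 difference in CPM -0.24, SE 0.26, adjusted p = 0.584). The muscle form Pfkm had 68.3, 62.5 and 91.1 CPM in knockouts and 93.0, 91.7 and 104 CPM in controls (log2 -0.38, SE 0.14, adjusted p = 0.132); without knockout replicate 3 this was -0.56 with an adjusted p of 0.00351.

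The isoform shares of the phosphofructokinase step overlapped between the groups. Pfkp made up 60.6%, 60.6% and 54.0% of the step's TPM in knockouts and 54.1%, 59.5% and 60.5% in controls, a difference of 0.395 percentage points (exact permutation p = 0.6, adjusted 0.72). Pfkl made up 17.1%, 17.9% and 21.4% in knockouts and 23.6%, 16.8% and 14.1% in controls (exact permutation p = 0.8). The summed level, in contrast to the hexokinases, was lower in knockouts without overlap, at 179, 168 and 213 TPM against 237, 217 and 231 TPM in controls. The direction of both share differences changed when single libraries were left out, at -1.58 to 2.58 points for Pfkp and -1.37 to 3.38 points for Pfkl.

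**Figure D2:**
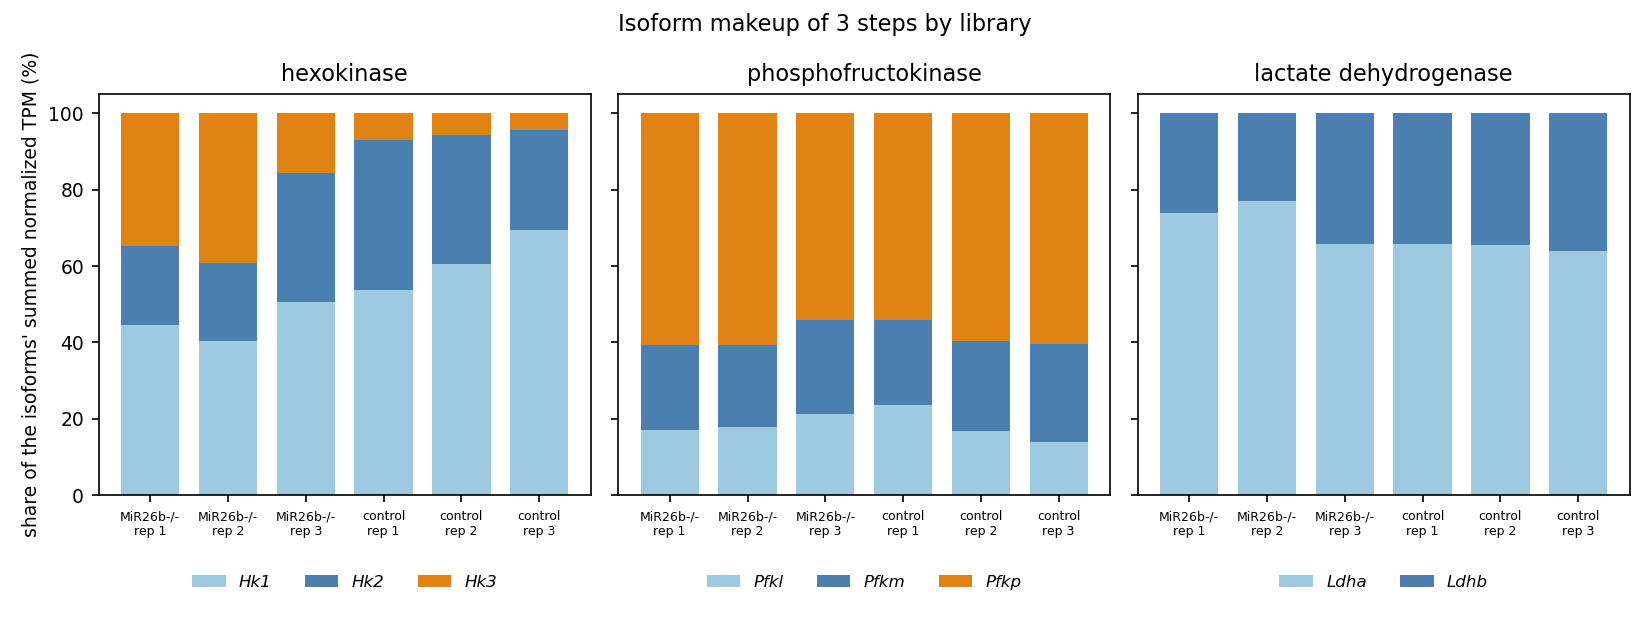
Share of each isoform in the summed normalized TPM of its step (%, stacked bars) in each library, knockouts left and controls right. Hk3 takes 15.7% to 39.1% of the hexokinases in knockouts and 4.46% to 7.05% in controls, Pfkp takes 54.0% to 60.6% of the phosphofructokinases in knockouts and 54.1% to 60.5% in controls, and Ldha takes 65.7% to 76.9% of the lactate dehydrogenases in knockouts and 63.8% to 65.7% in controls.

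Smooth muscle markers moved with Pfkp across the libraries. On the centred log2 scale the smooth muscle marker mean was -0.36, -0.42 and -0.13 in knockouts and 0.25, 0.23 and 0.43 in controls. Pfkp stood at -0.17, -0.28 and 0.00 in knockouts and at 0.10, 0.14 and 0.21 in controls, in the same direction over a narrower range. Summed platelet markers were 34.1, 40.9 and 31.2 CPM in knockouts and 31.1, 28.2 and 25.2 CPM in controls. The largest part was Pf4, at 19.5, 23.3 and 20.2 CPM in knockouts and 16.1, 18.5 and 13.9 CPM in controls. The list was split: Pf4, Ppbp, Itga2b and Tubb1 were higher in knockouts on average, and Gp9, Gp1bb, Gp1ba and Gp6 lower. Of the 8, 0 passed by edgeR. Pf4 was higher at an unadjusted p below 0.05, and DESeq2 called 1 of the 8 higher. Over all 17392 tested genes these counts were 3040 and 2067. The part of either cell type in the Pfkp difference was not tested. The profiles most like that of Pfkp were those of Ublcp1, Tigd5, Lynx1, Trp53bp2 and Zcchc3, with root mean square differences of 0.017, 0.017, 0.024, 0.025 and 0.027 log2 units. Of these Lynx1, a modulator of nicotinic acetylcholine receptors, was called lower (log2 -0.33, adjusted p = 0.0459), and the others were not called.

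Below phosphofructokinase no enzyme of the 10 passed, and the groups overlapped in each. Aldoa, which splits fructose 1,6-bisphosphate, had 738, 715 and 905 TPM in knockouts and 1046, 795 and 759.9 TPM in controls. Knockout replicate 3 and control replicate 1 were the highest of their groups, and the log2 difference in CPM was -0.14 (SE 0.14, adjusted p = 0.549). Pgk1, the first ATP-yielding step, had 147, 154 and 143 TPM in knockouts and 170.3, 138 and 122 TPM in controls. The knockouts were tightly grouped inside the range of the controls (log2 difference in CPM 0.02, SE 0.12, adjusted p = 0.925). Pkm, the second ATP-yielding step, had 622, 615 and 596 TPM in knockouts and 655, 568 and 549 TPM in controls. Again the knockouts fell inside the control range (log2 difference in CPM 0.06, SE 0.08, adjusted p = 0.657). Aldoa, Gapdh, Pgk1, Eno1 and Ldha have processed copies in the mouse genome between which kallisto can divide reads, so their levels are uncertain to that extent.

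Ldha, the muscle-type subunit that favours lactate, had 349, 376 and 336 TPM in knockouts and 379, 303 and 252 TPM in controls. The groups overlapped because control replicate 1 exceeded every knockout (log2 difference in CPM 0.16, SE 0.14, adjusted p = 0.487). Its partner Ldhb, the heart-type subunit, had 124, 113 and 175 TPM in knockouts and 198, 159 and 143 TPM in controls (log2 difference in CPM -0.30, adjusted p = 0.343). Without knockout replicate 3 the Ldhb difference was -0.52 with an adjusted p of 0.0328. The Ldha share of the summed subunits was 73.8%, 76.9% and 65.7% in knockouts and 65.7%, 65.6% and 63.8% in controls. Its mean was 72.1% ± 5.79 in knockouts and 65.0% ± 1.11 in controls (SD, n = 3 each), and the difference of 7.1 percentage points had an exact permutation p of 0.2, or 0.6 adjusted over the 6 shares. Knockout replicates 1 and 2 stood above all controls and knockout replicate 3 was level with them.

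Ldha is a textbook target of hypoxia-inducible factors, and its first upstream window (RefSeq, chr7:46845554-46845803, plus strand, GRCm38.p6) held the most ACGTG letters of any enzyme window, which is why it is printed, with these letters in capitals.
Ldha upstream window: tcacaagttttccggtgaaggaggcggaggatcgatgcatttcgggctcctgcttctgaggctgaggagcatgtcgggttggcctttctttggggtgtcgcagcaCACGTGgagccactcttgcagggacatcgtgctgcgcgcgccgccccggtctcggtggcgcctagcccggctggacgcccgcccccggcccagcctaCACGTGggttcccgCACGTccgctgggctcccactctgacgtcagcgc
The script counted 5 matches over both strands, because the palindrome CACGTG, also known as an E-box, counts on each. ACGTG was in 7 of the 15 windows (in Hk2, Hk3, Aldoa, Pgk1, Pkm and Ldha), against 16.6% of all windows; several enzymes have more than 1 window, and some of these overlap. Of 13 tested genes of the hypoxia response, Hif1a among them, 1 was higher and 0 were lower by edgeR, with a median log2 of -0.15. At an unadjusted p below 0.05, 2 were lower, the carbonic anhydrase Car9 at -0.49 and the oxidoreductase Ero1l at -0.25. Over all 17392 tested genes 2292 were lower at that p. DESeq2 called 2 of the 13 lower, against 1334 of the 17392. Without knockout replicate 3 edgeR called 2 higher and 3 lower, against 3051 and 2028 of 17720 genes. The one that passed was Ndrg1, a stress-induced gene also active in differentiation, at 194, 189 and 184 CPM in knockouts and 124, 129 and 147 CPM in controls (log2 0.50, SE 0.08, adjusted p = 0.0249). Without any one library other than knockout replicate 3 its adjusted p was between 0.0644 and 0.121, and with brown fat marker level as a covariate it was 0.0503. Under that covariate 105 of all tested genes were called higher and 93 lower, against 1131 and 667 without it.

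**Figure D3:**
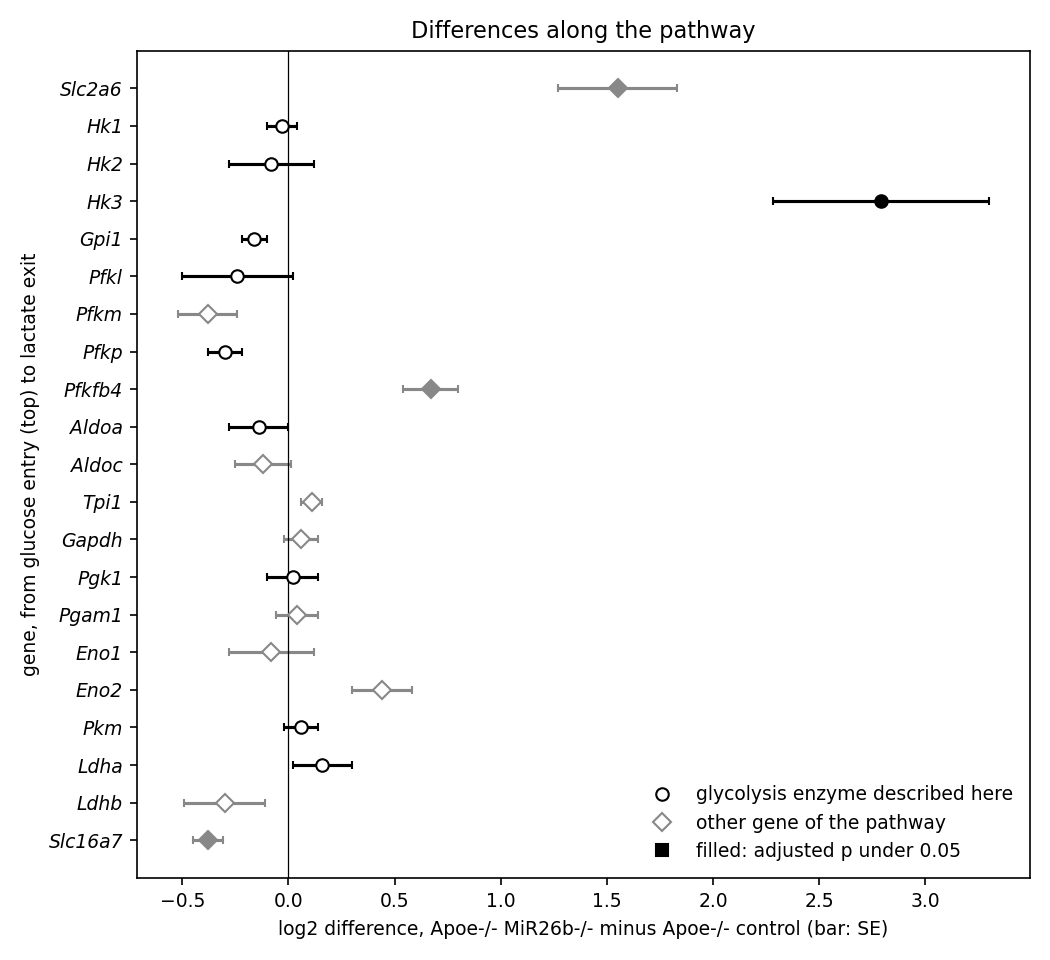
Log2 difference in CPM, Apoe-/- MiR26b-/- minus Apoe-/- control, with its standard error for each enzyme and for named genes around it, from glucose entry at the top to lactate exit at the bottom; circles are the enzymes described here, diamonds other genes, and filled symbols passed an adjusted p of 0.05. Hk3 at 2.79 and Slc2a6 at 1.55 lie far to the right, Pfkfb4 is higher at 0.67, Slc16a7 is lower at -0.38, and the other genes drawn did not pass.

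The remaining enzymes of the pathway held no call: of 15 tested, 0 were higher and 0 lower by edgeR, with a median log2 of -0.05. At an unadjusted p below 0.05, 1 was higher and 1 lower, against 3040 and 2292 of all 17392 tested genes. Tpi1 had a log2 difference of 0.11, Gapdh 0.06, Pgam1 0.04, Eno1 -0.08 and Aldoc -0.12. Eno2, the neuronal enolase, had 20.9, 21.9 and 15.3 CPM in knockouts and 14, 14 and 14.6 CPM in controls, a log2 difference of 0.44 with an adjusted p of 0.0837. DESeq2 gave Eno2 an adjusted p of 0.0299, and edgeR without knockout replicate 3 gave 0.0016. In TPM its groups overlapped, at 16.9, 21.0 and 13.0 in knockouts and 11.4, 11.5 and 13.4 in controls. On log2(TPM + 1) limma gave an adjusted p of 0.165.

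Pfkfb4, which makes and breaks down the phosphofructokinase activator fructose 2,6-bisphosphate, was the 1 gene of the 5 in its list that passed. It had 20.7, 21.3 and 16.1 CPM in knockouts and 11.2, 11.7 and 13.6 CPM in controls (log2 0.67, SE 0.13, adjusted p = 0.0345). Among 8 transporters, 1 rose and 1 fell. Slc2a6, a sugar transporter of the GLUT family known from macrophages and other white blood cells, had 3.26, 3.64 and 1.97 CPM in knockouts and 0.983, 1.21 and 0.837 CPM in controls (log2 1.55, SE 0.28, adjusted p = 0.0313). Like Hk3, it had its lowest knockout value in replicate 3. Slc16a7 had 43.1, 40.1 and 47.1 CPM in knockouts and 56.0, 55.4 and 58.5 CPM in controls (log2 -0.38, SE 0.07, adjusted p = 0.0313). It is the gene with the 7-base site printed above, and it was lower, not higher, in the knockouts. Whether that site bears on its level was not tested. The main glucose transporter Slc2a1 differed by -0.12 (adjusted p = 0.444). With single libraries other than knockout replicate 3 left out, the adjusted p was 0.0915 to 0.139 for Pfkfb4, 0.077 to 0.129 for Slc2a6 and 0.0873 to 0.13 for Slc16a7. With the brown fat covariate it was 0.0601 for Pfkfb4, 0.105 for Slc2a6 and 0.0916 for Slc16a7. Under this covariate 105 of the 17392 tested genes were called higher and 93 lower, against 1131 and 667 without it. On log2(TPM + 1) limma gave 0.0563 for Slc2a6 and 0.0647 for Slc16a7, and on log2(TPM + 0.1) it gave 0.0592 for Slc16a7.

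In 4 further lists no gene passed by edgeR over all 6 libraries. Without knockout replicate 3 each list held calls, but calls were then common, at 3051 higher and 2028 lower of 17720 genes. Over all 6 libraries, 3040 of 17392 genes were higher and 2292 lower at an unadjusted p below 0.05. DESeq2 called 2067 of these genes higher and 1334 lower. Of 14 genes for pyruvate entry into mitochondria, 0 passed, with a median log2 of -0.35 and every difference between -0.73 and -0.06; the 2 of lowest p were Pdp2, a pyruvate dehydrogenase phosphatase, at -0.56 (adjusted p = 0.126) and Pdk3 at -0.16 (adjusted p = 0.272). DESeq2 called Pdp2 lower, and without knockout replicate 3 edgeR called 3 of the 14 lower, Pdp2 among them at -0.84 (adjusted p = 0.00215). Fat markers moved with this list: 11 of the 14 genes were highest in control replicate 1 and next in knockout replicate 3, as were 6 of 8 brown and 6 of 8 white fat markers, against 832 of all tested genes (4.78%). Pdha1, a pyruvate dehydrogenase subunit, had 192, 186 and 324 CPM in knockouts and 401, 289.6 and 228 CPM in controls. Of 5 gluconeogenic genes 0 passed, 0 had an unadjusted p below 0.05 and DESeq2 called 0, and their leading gene Pck1 ranged from 54.7 to 322 CPM in knockouts and from 137 to 410.3 CPM in controls; without knockout replicate 3 it was called lower, at a log2 difference of -2.29 (adjusted p = 0.0124), the 1 call in its list. Fbp2, the other of lowest p there, ranged from 0.225 to 1.34 CPM in knockouts and from 0.304 to 2.25 CPM in controls. Of 8 genes of the pentose phosphate pathway 0 passed, 1 was higher at an unadjusted p below 0.05 and DESeq2 called 0, with H6pd at 0.37 and Rpia at -0.13; without knockout replicate 3, H6pd was called higher at 0.51 (adjusted p = 0.00297), the 1 call in its list. Of 10 glycogen genes 0 passed, 1 was higher and 3 lower at an unadjusted p below 0.05 and DESeq2 called 2 lower, with Pygb, the brain glycogen phosphorylase, at -0.30 (adjusted p = 0.0985); without knockout replicate 3, 1 of the 10 was called higher and 3 lower, with Pygb at an adjusted p of 0.00518.

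Of the 10 enzymes, 3 that did not pass had their highest levels in the libraries where fat markers were highest. The 8 brown fat markers summed to 184, 242 and 757 CPM in knockouts and to 1078, 578 and 299.5 CPM in controls, and the defining thermogenic gene Ucp1 had 60.4, 89.7 and 437 CPM in knockouts and 600.4, 270.5 and 135 CPM in controls. Pfkl stood, on the centred log2 scale, at -0.31, -0.34 and 0.32 in knockouts and at 0.59, -0.04 and -0.21 in controls. Hk2 stood at -0.23, -0.10 and 0.24 in knockouts and at 0.39, 0.04 and -0.33 in controls. Aldoa moved less, between -0.18 and 0.14 in knockouts and between -0.10 and 0.32 in controls. All 3 were highest in control replicate 1 and next in knockout replicate 3, the libraries with the highest summed brown and white fat markers. This order was held by 4.78% of all tested genes. The low end differed: Hk2 was lowest in control replicate 3, and the summed brown fat markers in knockout replicate 1. Pgk1 and Ldha did not keep the order, with knockout replicate 3 at -0.03 and 0.03, below knockout replicate 2 at 0.08 and 0.18. The 8 white fat markers summed to 449, 641 and 1482 CPM in knockouts and to 1813, 1273 and 676 CPM in controls, so the kinds of fat cannot be told apart by this order. With the brown fat level as a covariate, the differences became 0.12 for Pfkl, 0.21 for Hk2 and 0.04 for Aldoa, each positive and none passing, and Hk3 was at 2.45 with an adjusted p of 0.127. Calls over all tested genes then numbered 105 higher and 93 lower, against 1131 and 667 without the covariate. None of the 8 brown or 8 white fat markers was at 0 in every library, and their part in these values was not otherwise tested.

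**Figure D4:**
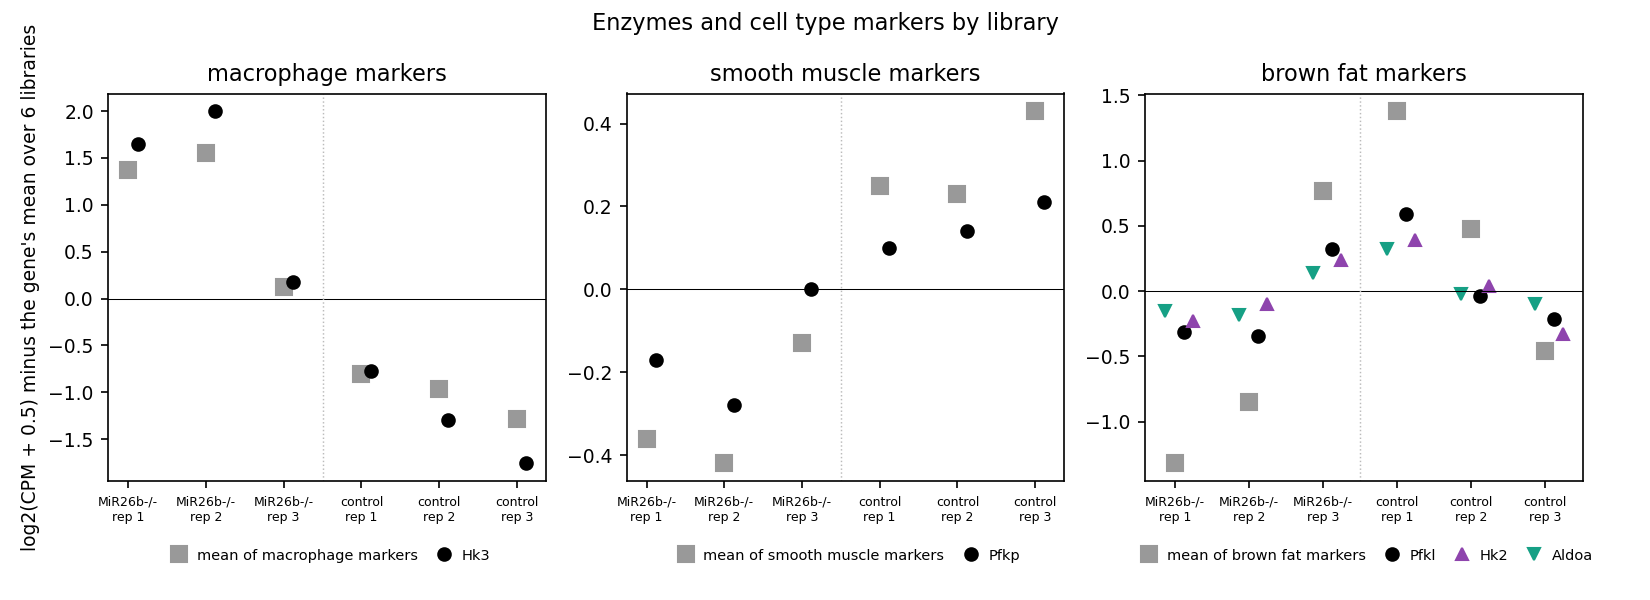
Centred log2(CPM + 0.5) of enzymes (small symbols) and of the mean of cell type markers (grey squares) in each library, knockouts left of the dotted line and controls right of it. Hk3 follows the macrophage markers from 2.0 at its highest, in a knockout, to -1.76 at its lowest, in a control; Pfkp lies higher in controls with the smooth muscle markers; Pfkl, Hk2 and Aldoa are highest in control replicate 1, where the brown fat markers are at 1.38.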

How the data were processed

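RNA of 6 libraries, 3 per group, had been sequenced; a micro column kit was used for extraction, per the labels. The submitters' processing notes name GRCm38, kallisto 0.46.2, Trim Galore 0.6.5 and FastQC 0.11.8; kallisto estimates transcript counts without a genome alignment. The deposited estimated counts are not whole numbers, and no source used here records how they were scaled; they were rounded to whole numbers here. The deposited normalized TPM values have column sums between 955527 and 1034723 and were used as a per-length signal made by the authors. Strandedness is not given in the sources used here.

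Counts were filtered with filterByExpr (minimum count 10), TMM-scaled and tested with edgeR 4.0.16 in R 4.3.3, without covariates; a call needs an adjusted p (Benjamini-Hochberg) below 0.05 over all 17392 genes tested. The biological coefficient of variation was 0.164. CPM values are TMM-scaled. The script was tested on simulated data. Isoform shares were compared on TPM by exact permutation (SciPy 1.17.1). No 2 libraries of a group agreed within sampling noise, with a mean chi-square per gene of 12.23 or more.

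The members and gene lists were chosen with earlier results of these data known. Named genes were the members, every list gene that passed, otherwise the 2 of lowest p in a list, the members' partners in their steps, and the 5 genes of most similar profile to Hk3 and to Pfkp. Some results under this rule, 1 of the 6 isoform shares among them, are not reported here. Other genes named, such as Slc2a1, Ucp1, Csf3r, Car9, Ero1l and Pdha1, were chosen after their values were seen. Seed sites were searched in GENCODE mouse release M21; upstream windows and the microRNA came from RefSeq tables on GRCm38.p6, which covered all 10 members. Alternatives were median-of-ratios, upper-quartile and library-size scaling, no and a stricter filter, DESeq2 1.42.0, limma-voom (limma 3.58.1), limma on log2(TPM + 1) and log2(TPM + 0.1), a replicate block, a brown fat covariate, shares from CPM and each library left out; summing rows that share a symbol was chosen after seeing the data. Totals of 51634139 to 54817547 counts per library limit precision most for the genes of lowest count.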

Additional observations from a re-analysis of the deposited data

How the results depend on the processing

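Direction and side of the threshold held in 113 of 120 member values under alternatives other than leaving out a library; with a library left out it held in 45, while 8 reversed, 5 lost the call and 2 gained it. Genes called higher numbered 2067 by DESeq2, 559 by limma-voom, 461 on log2(TPM + 1), 641 on log2(TPM + 0.1), 105 with the brown fat covariate and 0 to 3051 with a library left out, against 1131. Genes called lower numbered 1334 by DESeq2, 251 on log2(TPM + 1), 301 on log2(TPM + 0.1), 93 with the brown fat covariate and 0 to 2028 with a library left out, against 667. Members called higher numbered 0 by limma-voom, 0 with the covariate and 0 to 1 with a library left out; members called lower numbered 1 by DESeq2 (Pfkp) and 0 to 2 with a library left out (Pfkp and Gpi1, without knockout replicate 3). Differences that turned positive with the covariate were Aldoa at 0.04, Eno1 at 0.19, Fbp2 at 0.50, Hk2 at 0.21 and Pfkl at 0.12, and Hk1 was 0.01 with library size alone. With single libraries left out, log2 differences ranged from -0.25 to 0.01 for Aldoa, -0.22 to 0.16 for Eno1, -2.05 to 0.43 for Fbp2, -0.07 to 0.04 for Hk1, -0.25 to 0.12 for Hk2, -0.49 to 0.05 for Pfkl, -0.04 to 0.16 for Pgam1 and -0.08 to 0.16 for Pgk1, and share differences from -1.37 to 3.38 points for Pfkl and -1.58 to 2.58 for Pfkp. The cause of these changes was not tested. The labels state no pairing by replicate number. Deviations of same-numbered libraries from their group means correlated at -0.1918, 0.27 and 0.0349. With 3 libraries per group these deviations are tied to each other, so the correlations cannot decide whether the libraries are paired. With the replicate block 1295 genes were higher and 700 lower, Hk3 was at 2.68 with an adjusted p of 0.0181, and Pfkfb4 had an adjusted p of 0.0702.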
